A study of Rattus norvegicus with 4 samples.

Results

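miR-26a and miR-26b are closely related microRNAs (miRNAs, short RNAs that guide repression of messenger RNAs), described here in rat liver across the small RNA libraries of a study of hepatic fibrosis. They are the 2 rows named rno-miR-26a and rno-miR-26b, without an asterisk, of the 680 miRNA names in each deposited file. The rows were picked by name, with earlier results of these data known. The labels give 2 samples of hepatic fibrosis tissue and 2 of normal hepatic tissue from Rattus norvegicus. Strain, age, the agent that caused the fibrosis and whether replicates came from separate animals are not stated in the labels. Libraries were made from total RNA, and per the labels' protocols liver sections were also stained with hematoxylin-eosin and Masson trichrome.

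The second file of the fibrosis group and the second file of the normal group held the same value for every one of the 680 names, with 0 differing. The column header of the second normal file does not match its title, so the labels do not settle which tissue this library came from. It is counted once below and called the duplicated library. That leaves 3 distinct libraries. A single label is carried by fibrosis replicate 1 and by normal replicate 1. The comparison of fibrosis with normal liver therefore has 1 library on each side and no replicate check.

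The miR-26 family is known as a brake on cell division. Its members repress the histone methyltransferase Ezh2 and cyclins and cyclin-dependent kinases of the G1 phase in human and mouse cells, and low miR-26 has been reported in human liver cancer. The miR-26 genes lie within introns of genes of the Ctdsp family of small phosphatases in mammals, from which they are expressed together with their hosts. In the RefSeq gene table of the rat assembly GRCr8, Mir26a stands within the span of Ctdspl and Mir26b within the span of Ctdsp1.

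The mature sequences are shown first because the comparison turns on how alike they are, with the seed (bases 2 to 8 from the 5′ end, the part that pairs with targets) in capitals. They are RefSeq's, on GRCr8, and both are on the plus strand.
rno-miR-26a-5p at chr8:127633063-127633084: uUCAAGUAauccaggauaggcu
rno-miR-26b-5p at chr9:83425723-83425743: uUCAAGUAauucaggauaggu
Both carry the seed UCAAGUA, and of the 693 mature rat miRNA names in the RefSeq table these 2 were the only ones to carry it. miR-26a has 22 bases and miR-26b has 21. Counted from 1 at the 5′ end of miR-26a, the 2 differ by C11U and C21U, and 19 of the 21 aligned bases are identical. The first 10 bases are shared, and so are the 9 bases from position 12 to position 20. A read of both that ends at position 20 thus differs at 1 base, and the rule by which the authors assigned reads matching more than 1 miRNA is not given in the sources used here.

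The hairpins from which they are cut are shown with the mature strand in capitals, since the files list the opposite, minor arm separately.
Mir26a hairpin at chr8:127633048-127633137: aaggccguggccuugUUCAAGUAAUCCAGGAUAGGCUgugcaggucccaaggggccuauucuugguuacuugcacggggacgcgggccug
Mir26b hairpin at chr9:83425709-83425793: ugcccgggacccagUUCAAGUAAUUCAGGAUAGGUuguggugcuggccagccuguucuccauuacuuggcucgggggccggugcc
The hairpins measure 90 and 85 bases. The rows of the minor arms, rno-miR-26a* and rno-miR-26b*, stood at 0 reads in all 3 libraries, which allows up to 0.432 RPM in fibrosis replicate 1, 0.472 RPM in the duplicated library and 0.424 RPM in normal replicate 1 (3 reads each; RPM is reads per 1000000 reads, as the authors scaled them). miR-26a stood at 973 times that mark in fibrosis replicate 1, 582 times in the duplicated library and 1043 times in normal replicate 1. miR-26b stood at 1030, 1391 and 1313 times the mark in the same libraries. Against the upper limits of the intervals these multiples are smaller, so they are not lower bounds on the excess over the minor arms. Of the 19 major rows that averaged at least 100 RPM and had a minor row, 7 had no minor read in any library, among them both miR-26 members, miR-101a and miR-101b.

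The authors' RPM were whole multiples of 1 read, from which scaling totals of 6357069 to 7070374 reads were recovered. Of these, 3339603 to 3653412 reads fell on listed miRNAs. All intervals below are 95% intervals that cover counting error alone: without molecular identifiers, reads are not independent molecules. miR-122, the defining hepatocyte miRNA, took 243915 RPM in fibrosis replicate 1, 247931 RPM in the duplicated library and 263140 RPM in normal replicate 1.

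Both members were among the 23 most abundant of the 236 to 250 miRNAs seen in each library, and miR-26b was the more abundant throughout. miR-26a stood at 419.8 RPM in fibrosis replicate 1 (404.7 to 435.3, 2918 reads), 274.5 RPM in the duplicated library (261.8 to 287.7, 1745 reads) and 442.7 RPM in normal replicate 1 (427.3 to 458.5, 3130 reads). It was low in the duplicated library alone, and the intervals of the other 2 libraries overlapped. miR-26b stood at 444.5 RPM in fibrosis replicate 1 (429.0 to 460.5, 3090 reads), 656.4 RPM in the duplicated library (636.7 to 676.7, 4173 reads) and 557.0 RPM in normal replicate 1 (539.7 to 574.6, 3938 reads). Its order was the reverse of that of miR-26a at the duplicated library, which was highest for miR-26b and lowest for miR-26a, and no 2 of its intervals overlapped. By level, miR-26a was ranked 21 of 250 in fibrosis replicate 1, 23 of 236 in the duplicated library and 20 of 239 in normal replicate 1. miR-26b was ranked 20, 14 and 16 in these libraries.

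**Figure D1:**
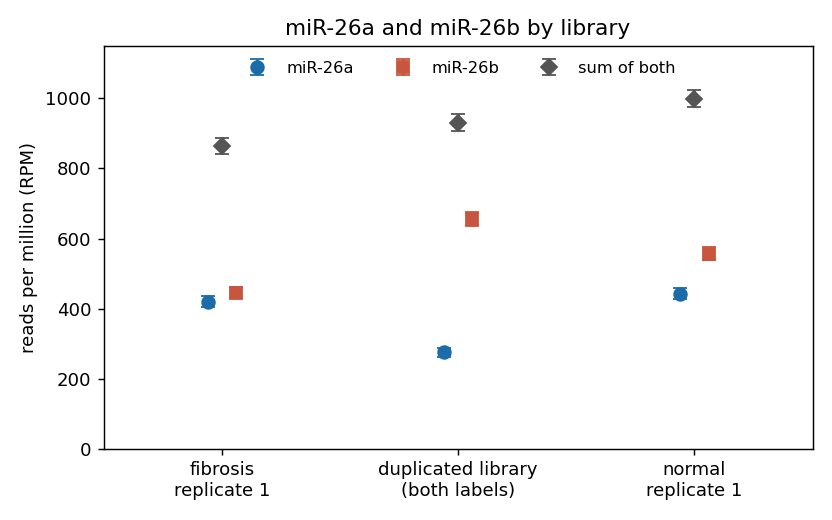
Level of miR-26a, miR-26b and their sum in RPM (y axis) in the 3 distinct libraries (x axis); bars are exact Poisson 95% intervals and cover counting error only. In the duplicated library miR-26a is at 274.5 RPM and miR-26b at 656.4 RPM, while the sums lie between 864.3 and 999.7 RPM.

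The sum of both members varied less than either. It does not depend on how reads were divided between them if each read was counted under 1 member only, which is not stated. The sum was 864.3 RPM in fibrosis replicate 1 (842.6 to 886.5), 930.9 RPM in the duplicated library (907.4 to 955.0) and 999.7 RPM in normal replicate 1 (976.5 to 1023.2). The highest sum was 1.16 times the lowest, against 1.61 times for miR-26a and 1.48 times for miR-26b. As a share of all miRNA reads the pair made up 0.171% in fibrosis replicate 1 (0.167 to 0.176), 0.177% in the duplicated library (0.173 to 0.182) and 0.193% in normal replicate 1 (0.189 to 0.198).

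Between fibrosis replicate 1 and normal replicate 1, miR-26b was the member that differed more. Its ratio was 0.798 (0.761 to 0.837), at 444.5 RPM in fibrosis replicate 1 against 557.0 RPM in normal replicate 1. The ratio of miR-26a was 0.948 (0.901 to 0.998), at 419.8 RPM against 442.7 RPM. That interval only just excludes 1, and it included 1 under 3 other scalings, as with TMM factors at 0.994 (0.944 to 1.05). The sum had a ratio of 0.865 (0.835 to 0.895). Neither member was 1.5-fold apart, as were 7.89% of the 76 miRNAs that averaged 10 RPM or more in this pair of libraries. An interval that excluded 1 was common at this depth, with 57.9% of the 76, and the median ratio was 0.926. Ordered by the size of the difference in either direction, miR-26b was 28 of 76 and miR-26a was 66 of 76. These values compare 1 library with 1 other and not the conditions.

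The duplicated library differed from each of the others in opposite directions for the 2 members. miR-26a was higher in fibrosis replicate 1 than in the duplicated library, with a ratio of 1.53 (1.44 to 1.62), and lower in the duplicated library than in normal replicate 1, with a ratio of 0.620 (0.584 to 0.658). miR-26b had the ratio 0.677 (0.646 to 0.710) for fibrosis replicate 1 over the duplicated library, and 1.18 (1.13 to 1.23) for the duplicated library over normal replicate 1. Both comparisons use the duplicated library, so they are not separate pieces of evidence. The ratios of the sums were 0.928 (0.896 to 0.963) and 0.931 (0.899 to 0.964).

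In the deposited RPM, miR-26a was past a 1.5-fold mark in both comparisons and miR-26b in neither, a contrast that depended on the scaling. In fibrosis replicate 1 against the duplicated library 19.4% of 72 miRNAs were past it, and in the duplicated library against normal replicate 1 27.4% of 73 were, so a difference of this size was not rare among these libraries. Intervals excluded 1 for 68.1% and 72.6% of these miRNAs. miR-26a was 12 of 72 and 15 of 73 by size of the difference, and miR-26b was 17 of 72 and 43 of 73. With DESeq2 size factors and with upper-quartile factors miR-26a fell short of the mark in both comparisons: its ratios were 1.48 and 1.32 for fibrosis replicate 1 over the duplicated library, and 0.671 and 0.683 for the duplicated library over normal replicate 1. With the same 2 scalings miR-26b was past the mark for fibrosis replicate 1 over the duplicated library, with ratios of 0.654 and 0.585, so that the contrast between the members turned there. The directions held for both members under each of the 5 other scalings.

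**Figure D2:**
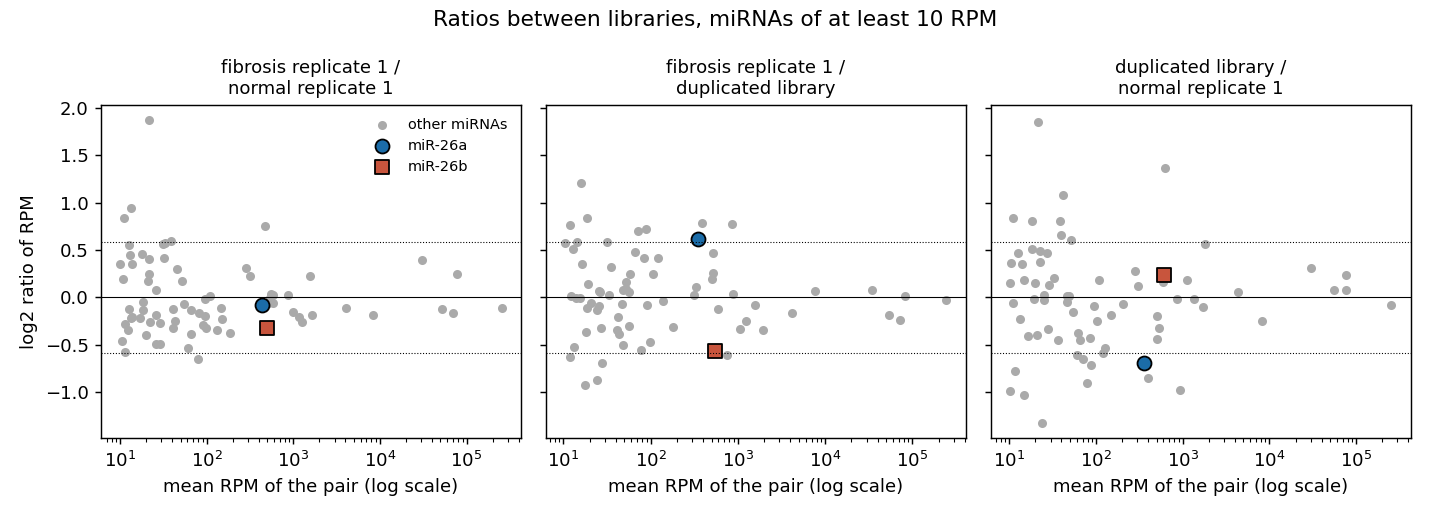
Log2 ratio of RPM between libraries (y axis) against the mean RPM of the pair (x axis, log scale) for miRNAs of at least 10 RPM; grey points are other miRNAs and dotted lines mark 1.5-fold. miR-26a and miR-26b lie on the same side of 0 in the left panel (ratios 0.948 and 0.798) and on opposite sides in the panels with the duplicated library.

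The balance of the 2 paralogues needs no scaling, because it is a share of reads within a library. miR-26b made up 51.4% of miR-26 reads in fibrosis replicate 1 (50.2 to 52.7 by the exact binomial interval), 70.5% in the duplicated library (69.3 to 71.7) and 55.7% in normal replicate 1 (54.5 to 56.9). That is 1.06 reads of miR-26b for each read of miR-26a in fibrosis replicate 1, 2.39 in the duplicated library and 1.26 in normal replicate 1. The 3 shares had intervals that did not overlap, with the 2 libraries of 1 label each closer to each other than to the duplicated one. Ligation during library preparation captures miRNAs unequally, so these shares are of reads and not of molecules.

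Tested on the reads, the balance differed in each of the 3 pairs of libraries. The odds of miR-26b against miR-26a in fibrosis replicate 1 were 0.842 times those in normal replicate 1 (0.785 to 0.902, two-sided Fisher's exact test, p = 9.96e-07, Benjamini-Hochberg adjusted over the 3 pairs p = 9.96e-07). The odds ratio was 0.443 for fibrosis replicate 1 over the duplicated library (0.410 to 0.478, Fisher's exact test, adjusted p = 1.88e-101). It was 1.90 for the duplicated library over normal replicate 1 (1.77 to 2.05, Fisher's exact test, adjusted p = 8.95e-68). These tests compare libraries and say nothing of the spread between animals. The difference between the libraries of 1 label each was smaller than both differences that involve the duplicated library, 1 of which must lie within a group if either of its labels is right. Whether reads exchanged between the 2 near-identical sequences contribute to these shares was not tested.

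**Figure D3:**
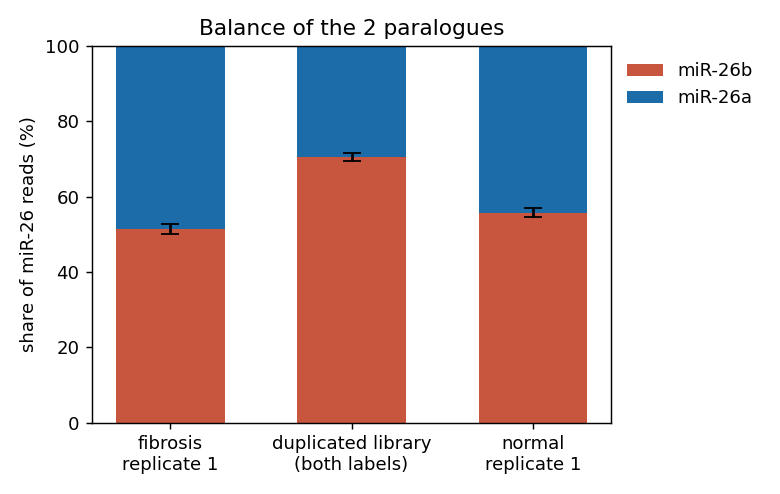
Share of miR-26b and miR-26a among miR-26 reads (y axis, percent) in the 3 distinct libraries (x axis), with exact binomial 95% intervals of the miR-26b share. The share of miR-26b is 51.4%, 70.5% and 55.7% in fibrosis replicate 1, the duplicated library and normal replicate 1.

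The same measure was taken for every pair of names that share a number and differ by a letter, with both at 10 RPM or more and the let-7 names left out. This gave 9 pairs. The miR-26 pair had the largest odds ratio in either direction in fibrosis replicate 1 over the duplicated library (2.26-fold, median of the 9 pairs 1.25-fold) and in the duplicated library over normal replicate 1 (1.90-fold, median 1.26-fold). In fibrosis replicate 1 over normal replicate 1 it was 3 of 9, at 1.19-fold against a median of 1.10-fold, behind miR-99a and miR-99b (1.60-fold) and miR-23a and miR-23b (1.36-fold). The interval excluded 1 for 3 of 9 pairs in each comparison with the duplicated library and for 4 of 9 without it. Not every pair with many reads moved. miR-101a and miR-101b, which averaged 191.5 and 1288 RPM and so were less even than the miR-26 pair, rest on at least 1127 reads. For fibrosis replicate 1 their odds ratios were 1.05 (0.961 to 1.14) over the duplicated library and 1.08 (0.998 to 1.18) over normal replicate 1. For the duplicated library over normal replicate 1 it was 1.04 (0.955 to 1.12). The pair of miR-29a and miR-29b, of the family that represses collagen genes, came second in both comparisons with the duplicated library, at 1.58-fold and 1.60-fold. That pair rests on as few as 54 reads. Its odds ratios were 1.58 (1.11 to 2.26) for fibrosis replicate 1 over the duplicated library and 0.625 (0.440 to 0.878) for the duplicated library over normal replicate 1. These are descriptions of 3 libraries, and 3 of the 9 pairs share members of the miR-29 family.

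**Figure D4:**
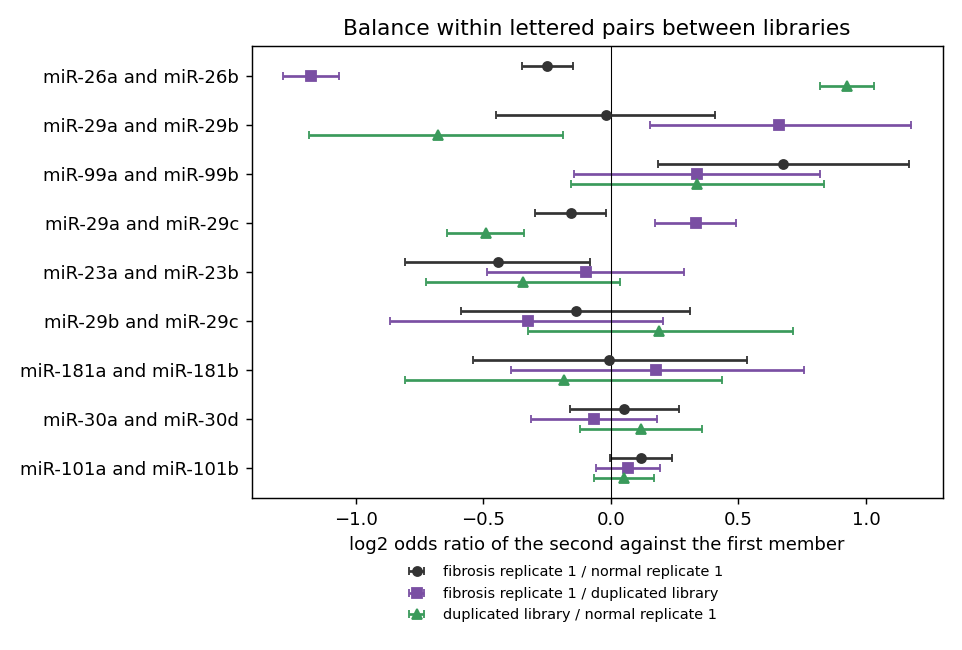
Log2 odds ratio of the second against the first member (x axis) for the 9 lettered pairs (y axis) in the 3 comparisons of libraries, with exact 95% intervals. The miR-26 pair lies farthest from 0 in both comparisons with the duplicated library, at odds ratios of 0.443 and 1.90.

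The comparison that the labels imply, with all 4 files as labelled, called neither member. On log2(RPM + 1), miR-26a averaged 8.41 in fibrosis and 8.45 in normal liver, a log2 difference of -0.04 (SE 0.26, limma, adjusted p = 1, n = 2 files each). miR-26b averaged 9.08 in fibrosis and 9.24 in normal liver, a log2 difference of -0.16 (SE 0.25, limma, adjusted p = 1, n = 2 files each). limma called 0 of 294 miRNAs (0%), with 4 at an unadjusted p under 0.05, and on the recovered reads edgeR called 0 with 1 such miRNA and DESeq2 called 0 with 0. With the same library in both groups this fit has almost no ability to call anything, and each difference is the mean of 0 and the difference between the other 2 libraries. An exact permutation test of 2 against 2 cannot go below 0.333. Leaving out the duplicated file of 1 group moved the difference of miR-26a to 0.27 when it was counted as normal only and to -0.38 when counted as fibrosis only. That of miR-26b moved to -0.44 and -0.04. The direction of miR-26a between the groups thus turned with the label of 1 library.

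By pattern over the 3 libraries, the members were not alike. Likeness was measured as the Euclidean distance between log2 RPM, each centred on its own mean, over the 3 libraries and among the 73 miRNAs that averaged 10 RPM or more. Each member stood 60 of 72 in closeness to the other, at a distance of 0.88. Nearest to miR-26a were miR-25 (0.080), which lies within the Mcm7 gene, miR-29b (0.091), miR-30a (0.094), miR-378 (0.14), which lies within the Ppargc1b gene, and miR-30d (0.15). All 5 were lowest in the duplicated library. miR-378 stood at 487.5 RPM in fibrosis replicate 1, 283.0 RPM in the duplicated library and 511.0 RPM in normal replicate 1. miR-25 stood at 109.3, 66.4 and 108.6 RPM in these libraries.

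Nearest to miR-26b were miR-30c-2* (0.039), miR-31 (0.066), miR-193 (0.12), miR-497 (0.14) and miR-21 (0.17), the last an injury-response miRNA. All 5 were highest in the duplicated library and lowest in fibrosis replicate 1. miR-31 stood at 82.1 RPM in fibrosis replicate 1, 113.7 RPM in the duplicated library and 100.3 RPM in normal replicate 1. miR-21 stood at 933.9, 1178.2 and 1041.7 RPM. With only 3 libraries, likeness describes these libraries and nothing beyond them. The SD of log2 RPM over the 3 was 0.38 for miR-26a (18 of 73 from the most variable) and 0.28 for miR-26b (29 of 73), with a median of 0.24.

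**Figure D5:**
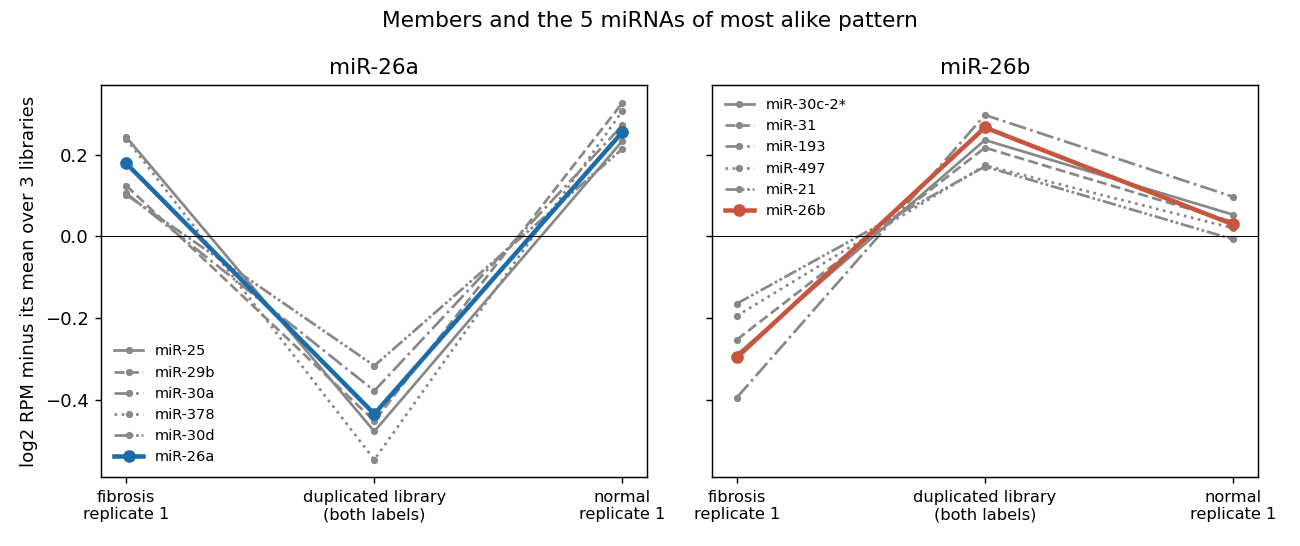
Log2 RPM minus its mean over the 3 libraries (y axis) for miR-26a (left) and miR-26b (right), with the 5 miRNAs of most alike pattern in grey, by library (x axis). miR-26a and its 5 nearest are lowest in the duplicated library, and miR-26b and its 5 nearest are highest there.

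The miRNAs next to the members in abundance moved in various ways. Around miR-26b, ranked 16 by its mean of 552.6 RPM, stood miR-140*, miR-199a-3p and miR-320 above, and miR-191, miR-103 and miR-107 below. miR-320 was close to level, at 567.0 RPM in fibrosis replicate 1, 618.1 RPM in the duplicated library and 552.0 RPM in normal replicate 1. miR-103, which is known to affect insulin sensitivity in mouse, stood at 595.0 RPM, 430.1 RPM and 583.6 RPM and was thus low in the duplicated library, as miR-26a was. Around miR-26a, ranked 21 by its mean of 379.0 RPM, stood miR-103, miR-107 and miR-378 above, and let-7i, miR-152 and miR-101a below. miR-152, which represses the DNA methyltransferase Dnmt1, stood at 318.5, 312.1 and 258.0 RPM.

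Other miRNAs described as repressors of Ezh2 were listed beside miR-26a: miR-101a, miR-101b, miR-138, miR-124 and miR-214. Of these 5, only miR-101a and miR-101b reached 10 RPM, and miR-124, a neuronal miRNA, had no read. miR-101b stood at 1141 RPM in fibrosis replicate 1, 1353 RPM in the duplicated library and 1368 RPM in normal replicate 1. miR-101a stood at 162.1, 201.4 and 210.9 RPM. Both were thus lowest in fibrosis replicate 1, as miR-26b was, with a median ratio of 0.801 to normal replicate 1, beside 0.926 over all 76 miRNAs. Unlike either member of the miR-26 family, both had intervals that included 1 between the duplicated library and normal replicate 1 (ratios 0.955, 0.885 to 1.03, and 0.989, 0.960 to 1.02). Below 10 RPM, miR-138 and miR-214 were instead higher in fibrosis replicate 1 than in normal replicate 1, on few reads. miR-138 had 14 reads against 1 (ratio 14.2, 2.17 to 602), and miR-214 had 23 against 18 (1.30, 0.671 to 2.56).

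Of 10 other miRNAs described as restraining G1 cyclins or their kinases, 4 reached 10 RPM in each comparison. Between fibrosis replicate 1 and normal replicate 1, 1 was higher and 3 were lower, with 1 interval above 1 and 1 below, and a median ratio of 0.869. Over all 76 miRNAs 57.9% of intervals excluded 1 and the median was 0.926, so by these 2 measures the 4 lay near the background. Of the 4, 1 was past 1.5-fold, beside 7.89% of the 76. In this comparison every list member under 10 RPM had an interval that included 1. The level of miR-16 was 57.3 RPM in fibrosis replicate 1, against 74.8 RPM in normal replicate 1 (ratio 0.765, 0.670 to 0.873). That of miR-503 was 17.4 RPM against 9.05 RPM (ratio 1.92, 1.41 to 2.65). miR-195 (0.876, 0.708 to 1.08) and miR-497 (0.862, 0.663 to 1.12) had intervals that included 1. All 4 of these were well below either miR-26 member in reads.

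Markers of other liver cells also varied between the libraries, not all beyond counting error, and their part in the miR-26 values was not tested. The mesenchymal and smooth muscle list, with all 5 members seen, summed to 668.7 RPM in fibrosis replicate 1, 1008.6 RPM in the duplicated library and 466.5 RPM in normal replicate 1. The order of these sums was set by miR-199a-3p, at 592.0, 903.4 and 350.5 RPM. miR-143 stood at 62.1, 91.2 and 97.3 RPM and miR-145 at 9.21, 6.92 and 13.7 RPM, so both were highest in normal replicate 1, and the median ratio of the 3 members over 10 RPM was 0.671 for fibrosis replicate 1 over normal replicate 1. The leukocyte list, with all 4 seen, summed to 41.9, 59.6 and 28.0 RPM. Most of each sum was miR-142-5p, at 39.4, 56.0 and 26.4 RPM. miR-142-3p, miR-150 and miR-223 had 11 reads or fewer in each library, and miR-142-3p was highest in normal replicate 1. The 2 endothelial rows summed to 7.77, 10.9 and 6.51 RPM, and the intervals of both included 1 in every pair of libraries. The 2 erythroid rows summed to 2.88, 2.05 and 7.78 RPM, on 41 reads or fewer per row in each library. The hepatocyte list of 3 summed to 251792, 255470 and 272148 RPM, and most of each sum was miR-122, lowest in fibrosis replicate 1. miR-192 stood at 7826, 7492 and 8936 RPM and miR-194 at 49.9, 47.2 and 72.1 RPM, both lowest in the duplicated library. For miR-194 the interval between fibrosis replicate 1 and the duplicated library included 1. In bulk tissue, fewer cells of a type and less of an RNA per cell cannot be told apart.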

How the data were processed

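Rat liver small RNA libraries were grouped by the tissue label into hepatic fibrosis and normal. Per the submitters' processing notes, CASAVA 1.4 and the rat build rn5 were used; the sources used here name no aligner or miRNA annotation. The deposited values are RPM computed by the authors. Dividing by the value of 1 read gave whole reads for 100% of values above 0, within 0.01 reads. Ratios of RPM carry exact (Clopper-Pearson) intervals of the reads, levels carry exact Poisson intervals, and the balance of the paralogues was tested with Fisher's exact test (scipy 1.17.1, Python 3.11.15). limma 3.58.1 (R 4.3.3) with a mean-variance trend was run on log2(RPM + 1) over miRNAs above 0 in at least 1 file, with Benjamini-Hochberg adjustment at 0.05. It was tested on simulated data with no library shared between the groups, so that test does not cover the layout here. Fold changes on that scale are understated for low miRNAs. On the recovered reads, edgeR 4.0.16 and DESeq2 1.42.0 called 0 miRNAs each. The comparisons of the duplicated library under other scalings were added after seeing the data. Members, lists and rules were chosen with earlier results of these data known. Named miRNAs are the members, their minor arms, the 3 next above and below in mean RPM, the 5 of most alike pattern, lettered pairs of at least 10 RPM, and the fixed lists. Some miRNA names were not analysed here. Sequences come from RefSeq tables on GRCr8, and both members matched. Plots were drawn with matplotlib 3.10.9.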

Additional observations from a re-analysis of the deposited data

How the results depend on the processing

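The ratios of both members between libraries kept their direction under TMM, DESeq2 size factors, the reads on listed miRNAs, upper-quartile factors and miR-122 left out. The ratio of miR-26a for fibrosis replicate 1 over normal replicate 1 no longer excluded 1 with TMM (0.994), DESeq2 size factors (0.992) and reads on listed miRNAs (0.971), since these scalings raise every such ratio. Adding 0.5 to each count left the 3 odds ratios on the same side of 1. Counts of miRNAs past 1.5-fold stayed within 1.5 times under each scaling. With a mean of at least 1 RPM in place of 10 they were 28 in place of 6 for fibrosis replicate 1 against normal replicate 1, 47 in place of 14 for fibrosis replicate 1 against the duplicated library, and 62 in place of 20 for the duplicated library against normal replicate 1. With at least 100 RPM they were 1, 4 and 5, fewer miRNAs being tested. Scaling with upper-quartile factors moved every log2 ratio of fibrosis replicate 1 over the duplicated library by -0.21 and of the duplicated library over normal replicate 1 by 0.14. For the second of these, DESeq2 size factors moved them by 0.11 and leaving out miR-122 by -0.13. In the fit of 4 files, leaving out 1 file at a time gave log2 differences of -0.38 to 0.31 for miR-26a and of -0.44 to 0.12 for miR-26b, with 0 calls each time. Leaving out normal replicate 1 (0.31 for miR-26a) or fibrosis replicate 1 (0.12 for miR-26b) leaves a group with the duplicated library alone, whose label is not settled. Each fit without 1 file takes the lone sample to have the spread of the other group. No label says that replicate numbers pair samples, and the files numbered 2 are the same library. With the replicate number as a block the differences were unchanged, at -0.04 and -0.16, with 0 calls by limma. With DESeq2 size factors and upper-quartile factors, for fibrosis replicate 1 over the duplicated library, miR-26a fell short of 1.5-fold (1.48 and 1.32) and miR-26b passed it (0.654 and 0.585). miR-26a also fell short for the duplicated library over normal replicate 1 (0.671 and 0.683). No scaling moved a member's ratio to the other side of 1, and beside these none changed its side of 1.5-fold. Only the scalings named above for miR-26a changed whether an interval excluded 1. In the fit of 4 files, the difference of miR-26a turned without the fibrosis file of the duplicated library (0.27) or without normal replicate 1 (0.31). That of miR-26b turned without fibrosis replicate 1 (0.12). Depth did not limit the members, with at least 1745 reads each.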
